A study of Mus musculus with 10 samples.

Results

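The genes described here encode 10 transcription factors that act in TH2 cells, the helper T cells behind IL-4, IL-5 and IL-13: Gata3, Stat6, Maf, Nfil3, Gfi1, Bhlhe41, Epas1, Pparg, Irf4 and Batf. They were chosen by symbol, and each of the 10 matched a row among the 49671 gene IDs of the count table. RNA sequencing was done on TH2 cultures grown from naive CD4+ T cells of wild-type C57BL/6 mice and harvested on day 5. The 7 deficient libraries came from mice bred without ultraviolet light and fed a diet free of vitamin D metabolites, and the 3 control libraries from mice kept alike but fed 400 IU of vitamin D3 per kg. The mice were second-generation offspring, and no age or sex is given in the sources used here. Batch 1 held 5 deficient and 2 control libraries, and batch 2 held 2 deficient and 1 control library. No label ties a library to a mouse of its own, so p-values cover the spread between these libraries alone, and that spread may be technical.

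A naive T cell that receives IL-4 activates STAT6, and STAT6 switches on Gata3, whose protein opens the cytokine locus and keeps its own gene active. c-Maf, encoded by Maf, drives Il4. The factors IRF4 and BATF, induced by the T cell receptor, bind DNA together and are needed by most effector T cells. GFI1 is a repressor that favours the growth of TH2 cells, and NFIL3, BHLHE41 (Dec2), PPARgamma and HIF-2alpha (Epas1) each add to or restrain parts of the effector programme, as known mainly from mice.

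Deficient libraries held 7029207 to 13433276 counts and control libraries 5800698 to 6462146. Along the first principal component of log2 CPM (read counts scaled to a common library total), with 69.5% of the variance, the libraries separated by diet, and along the second, with 12.6%, deficient libraries 5, 6 and 7 lay between 20.1 and 29.5 while deficient libraries 1 to 4 lay between -29.8 and -14.9. Library 5 is of batch 1, so this division is not the labelled batch. Xist, the RNA of the inactive X chromosome, was high in deficient libraries 1 and 3, at 657 and 733 CPM. T cell identity genes such as Cd3e and Cd4 summed to 2100 to 2338 CPM in deficient libraries, against 3097 to 3200 CPM in controls, and 8 of the 9 were lower. Of all genes tested, 28.6% were lower.

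The promoters of the members that changed are shown because their letters can be set against the values below. RefSeq's promoter table (GRCm38.p6) held 11 start sites of 8 of the 10 members; Epas1 and Maf are not among them. Printed are the 250 bases before a start site, 5′ to 3′ on the gene's strand, with motif matches in capitals. They lie at chr2:9878601-9878850 on the minus strand (Gata3), chr6:115362099-115362348 on the plus strand (Pparg, the second of 3 listed starts), chr6:145865421-145865670 on the minus strand (Bhlhe41) and chr13:30748983-30749232 on the plus strand (Irf4).
Gata3: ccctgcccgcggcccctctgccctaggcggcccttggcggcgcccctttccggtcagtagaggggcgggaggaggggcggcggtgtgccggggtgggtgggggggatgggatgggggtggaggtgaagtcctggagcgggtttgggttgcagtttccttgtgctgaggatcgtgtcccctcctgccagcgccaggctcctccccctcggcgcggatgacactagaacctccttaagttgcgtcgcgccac
Pparg: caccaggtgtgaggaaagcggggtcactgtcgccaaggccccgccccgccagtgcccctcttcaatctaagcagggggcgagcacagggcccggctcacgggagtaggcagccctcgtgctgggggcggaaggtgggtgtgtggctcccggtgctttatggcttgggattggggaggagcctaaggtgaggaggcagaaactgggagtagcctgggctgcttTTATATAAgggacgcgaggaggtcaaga
Bhlhe41: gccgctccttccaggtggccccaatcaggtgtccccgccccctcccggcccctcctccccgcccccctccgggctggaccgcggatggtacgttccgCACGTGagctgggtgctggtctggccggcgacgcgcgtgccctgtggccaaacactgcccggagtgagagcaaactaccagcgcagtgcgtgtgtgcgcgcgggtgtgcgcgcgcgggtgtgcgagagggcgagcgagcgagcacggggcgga
Irf4: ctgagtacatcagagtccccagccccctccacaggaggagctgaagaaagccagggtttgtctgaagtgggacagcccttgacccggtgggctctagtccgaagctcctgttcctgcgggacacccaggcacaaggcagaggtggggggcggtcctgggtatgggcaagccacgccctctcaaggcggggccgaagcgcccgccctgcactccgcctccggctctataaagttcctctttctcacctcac
The Bhlhe41 promoter holds CACGTG, the E-box that Bhlhe factors bind, from position -153 counted from the start site. It overlaps the hypoxia core ACGTG, which lies in it on either strand. The E-box was present in 7.15% of the 32851 promoters of 300 bases in the table, and the hypoxia core in 19.6%; the core also matched the promoter of Stat6, from position -114. The printed Pparg promoter, that of the second start, holds a match to TTANNTAA, the outer letters of the NFIL3 site, from position -28. The letters of this match also read as a TATA-type box, and 6.00% of promoters had a match. The other listed starts of Pparg matched no motif searched. Neither the Gata3 nor the Irf4 window matched any motif searched, and every search took in both strands. The GATA motif TGATAA (9.05% of all promoters) and the AP-1 motif TGANTCA (7.81%) matched no member, and the GATA form AGATAA (11.2%) matched Batf. The STAT6 palindrome (6.95%), the interferon-type repeat (3.44%), the PPAR direct repeat (0.0396%) and the vitamin D receptor direct repeat (0.067%) matched none. A match describes letters and is not a binding site.

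Of the 10 factors, Epas1, Pparg and Gata3 fell in deficient cells, Irf4 and Bhlhe41 rose, and Stat6, Maf, Nfil3, Gfi1 and Batf did not pass the test. Bhlhe41 only just passed, and its call was lost under 13 of 25 alternatives. The test was edgeR's quasi-likelihood test with batch as a term, and the threshold was an adjusted p of 0.05 (Benjamini-Hochberg) over 13699 genes. All 10 members passed the filter on low counts. The share called was 5 of 10, against 58.0% of all genes tested in either direction (29.4% higher and 28.6% lower), so the count of members is near the background. Members called were 4 within batch 1 (48.4% of all genes there), 7 within batch 2 (46.9%) and 4 without deficient libraries 5 to 7 (56.4%). Their median log2 fold change, deficient over control, was -0.02, against 0.02 over all genes tested. In the same 5 genes the deficient and control libraries did not overlap in CPM, against 50.8% of all genes without overlap (29.4% above and 21.4% below every control). Fewer cells of a type and less RNA per cell cannot be told apart in such bulk samples.

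**Figure D1:**
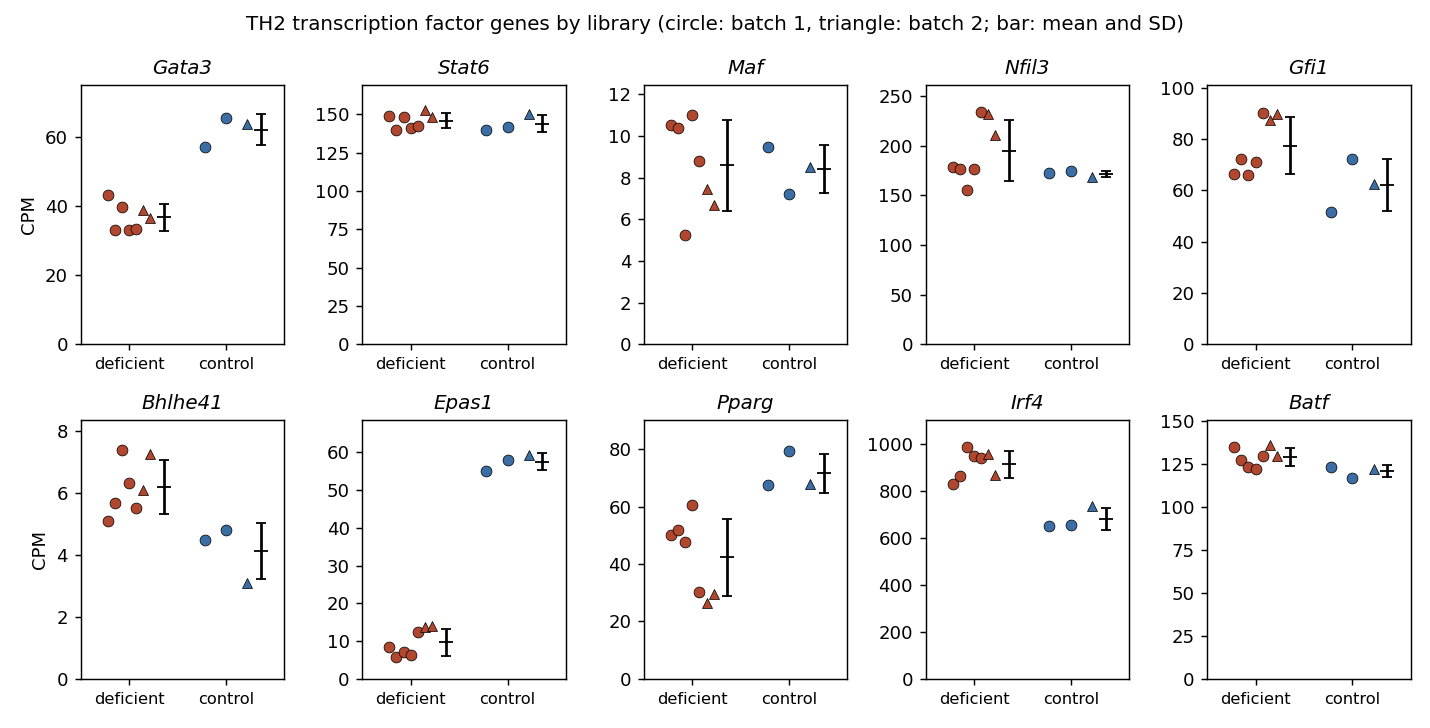
CPM (vertical axes, from 0) of each factor gene in every library, deficient left and control right, with circles for batch 1, triangles for batch 2 and a bar for mean and SD. The groups are apart for Gata3, Bhlhe41, Epas1, Pparg and Irf4, and Epas1 shows the widest gap relative to its level, at 5.84 to 14.0 CPM in deficient libraries against 55.2 to 59.4 CPM in controls.

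Gata3 (ENSMUSG00000015619; GRCm38 chromosome 2, 9857078 to 9890034, minus strand) encodes the zinc-finger factor that defines the TH2 lineage. The deficient libraries ran from 32.9 CPM through a median of 36.4 to 43.1 CPM, and the controls read 56.9, 65.4 and 63.6 CPM. Each of the 7 deficient libraries was thus below every control. The log2 fold change was -0.84 (SE 0.0979, adjusted p = 3.33e-06, edgeR), a level 1.79-fold lower. It was -0.84 within batch 1 and -0.81 within batch 2, where the lone control is assumed to vary like the deficient libraries, and passed in both. The summed T cell identity genes were lower in the same libraries, with a median log2 fold change of -0.49; their part in the result was not tested.

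Epas1 (ENSMUSG00000024140; chromosome 17, 86753700 to 86833410, plus strand) encodes HIF-2alpha, the oxygen-regulated partner of ARNT. It had the largest change among the members. Deficient libraries ran from 5.84 CPM through a median of 8.35 to 14.0 CPM, against 55.2, 58.0 and 59.4 CPM in control libraries 1, 2 and 3. The groups are far apart, and the lowest count of any library was 50 reads. The log2 fold change was -2.67 (SE 0.203, adjusted p = 9.30e-07, edgeR), a level 6.37-fold lower. Of the 13699 genes tested, 164 (1.20%) had a log2 fold change as low or lower.

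Pparg (ENSMUSG00000000440; chromosome 6, 115360951 to 115490399, plus strand) encodes a lipid-sensing nuclear receptor that mouse TH2 cells use in effector responses. Deficient libraries ran from 26.4 CPM through a median of 47.5 to 60.4 CPM, and controls read 67.4, 79.4 and 67.8 CPM. No deficient library reached a control, but the 7 were widely spread. The log2 fold change was -0.91 (SE 0.196, adjusted p = 0.00312, edgeR), a level 1.88-fold lower. Leaving out deficient libraries 5 to 7, which was decided once their levels had been seen, gave -0.57, and Pparg still passed (adjusted p = 2.98e-05, edgeR). Adjusted p over the 25 alternatives ran from 2.62e-08 to 0.0319.

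Irf4 (ENSMUSG00000021356; chromosome 13, 30749226 to 30766976, plus strand) rose, whereas its DNA-binding partner Batf was not called. Irf4 ran from 830 CPM through a median of 942 to 987 CPM in deficient libraries and read 651, 657 and 736 CPM in controls, so the groups did not overlap. Its log2 fold change was 0.34 (SE 0.0570, adjusted p = 0.000108, edgeR), a level 1.27-fold higher. Batf (ENSMUSG00000034266; chromosome 12, 85686669 to 85709087, plus strand) encodes a small basic leucine zipper protein. It ran from 122 CPM through a median of 129.7 to 136 CPM in deficient libraries, against 123, 117 and 122 CPM in controls. The groups overlapped, and the log2 fold change was 0.01 (SE 0.0635, 95% interval -0.12 to 0.15, adjusted p = 0.877, edgeR).

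Bhlhe41 (ENSMUSG00000030256; chromosome 6, 145858243 to 145865558, minus strand), which encodes the basic helix-loop-helix repressor Dec2, was low in both groups, rose in deficient cells and only just passed. Deficient libraries ran from 5.10 CPM through a median of 6.10 to 7.40 CPM, against 4.48, 4.81 and 3.09 CPM in controls. All 7 deficient libraries were above every control, on 20 to 82 reads per library. The log2 fold change was 0.49 (SE 0.201, adjusted p = 0.0476, edgeR). It was 1.03 within batch 2. The call was lost with DESeq2 (adjusted p = 0.0769), with limma-voom (adjusted p = 0.0848), within batch 1 (adjusted p = 0.360), without deficient libraries 5 to 7 (adjusted p = 0.338) and with counts thinned to the shallowest library (adjusted p = 0.164). It was also lost, at 0.58 and 0.26, without control library 1 or 3. Leaving out deficient library 2, 3, 4, 6 or 7 ended it too, at 0.51, 0.46, 0.50, 0.49 and 0.43.

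The IL-4 signal transducer Stat6 (ENSMUSG00000002147; chromosome 10, 127642986 to 127660957) lay at 139 to 153 CPM in deficient libraries, with a median of 148 CPM, against 140, 142 and 150 CPM in controls. That is a spread of a few percent in either group, and the groups overlapped throughout. Its log2 fold change of -0.06 had a 95% interval of -0.19 to 0.06 (adjusted p = 0.357, edgeR). Maf (ENSMUSG00000055435; chromosome 8, 115682942 to 115707794), the gene of c-Maf, was low and variable, at 5.26 to 11.02 CPM with a median of 8.82 CPM in deficient libraries, against 9.48, 7.21 and 8.51 CPM in controls. Its log2 fold change was -0.06, and the wide 95% interval of -0.50 to 0.38 (adjusted p = 0.816, edgeR) leaves room for a change of either sign.

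Nfil3 (ENSMUSG00000056749; chromosome 13, 52967209 to 52981073), a basic leucine zipper factor that acts on Il10 and Il13 in mouse TH2 cells, ran from 155 CPM through a median of 179 to 233 CPM in deficient libraries and read 173, 174 and 168 CPM in controls. Of the deficient libraries, 6 were above every control and 1 was below, and the log2 fold change of 0.10 did not pass (adjusted p = 0.477, edgeR). Gfi1 (ENSMUSG00000029275; chromosome 5, 107716657 to 107726036), the growth-promoting repressor, ran from 65.9 CPM through a median of 72.3 to 90.0 CPM in deficient libraries, against 51.7, 72.1 and 62.4 CPM in controls. Its log2 fold change was 0.24 (95% interval -0.01 to 0.49, adjusted p = 0.0921, edgeR). Without control library 2, the highest control, Gfi1 passed at 0.41 (adjusted p = 0.00858, edgeR). Without deficient libraries 5 to 7 its log2 fold change was 0.06 (adjusted p = 0.635, edgeR). Within batch 1 alone it was 0.15 (adjusted p = 0.428, edgeR). Within batch 2 alone, with deficient libraries 6 and 7 against the lone control of that batch, Nfil3 stood at 0.34 and Gfi1 at 0.44. Nfil3 was at -0.10 without deficient libraries 5 to 7 and at -0.0067 within batch 1 alone. The test of the difference between batches called neither gene.

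**Figure D2:**
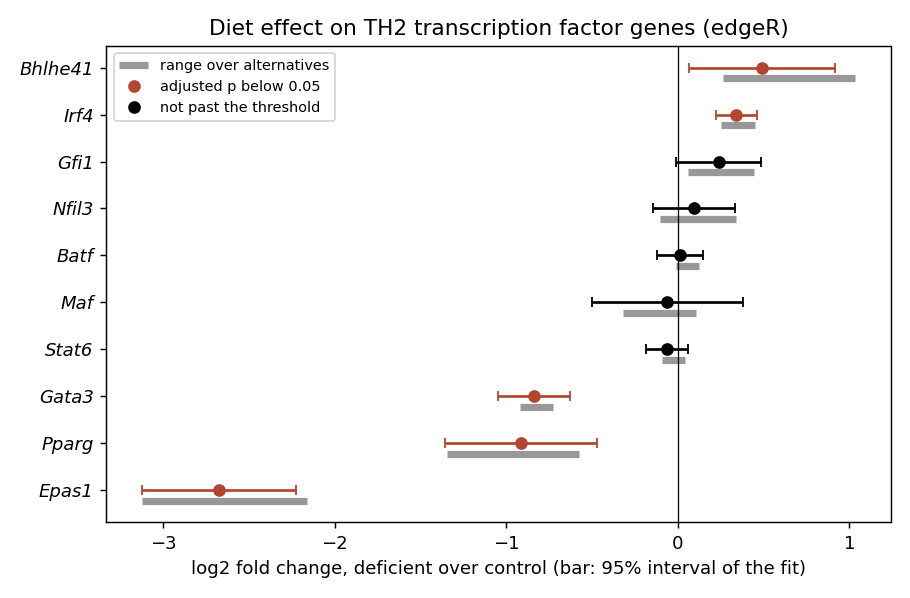
Log2 fold change, deficient over control (horizontal axis), of the 10 factor genes with its 95% interval; red points passed the adjusted p of 0.05, and grey bars span the values over all 25 alternatives. Gata3, Pparg and Epas1 stay below 0 over all of them, Irf4 and Bhlhe41 above 0, and the ranges of Nfil3, Batf, Maf and Stat6 cross 0.

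The deficient libraries differed among themselves in several members. Epas1 read 8.35, 5.84, 7.11 and 6.41 CPM in deficient libraries 1 to 4 and 12.3, 13.8 and 14.0 CPM in libraries 5 to 7, so its lowest levels were in the first 4. Pparg went the other way, with 50.1, 51.8, 47.5 and 60.4 CPM in libraries 1 to 4 and 30.4, 26.4 and 29.4 CPM in libraries 5 to 7. Nfil3 read 179, 177, 155 and 177 CPM in the first 4 and 233, 232 and 211 CPM in the last 3, and Gfi1 66.3, 72.3, 65.9 and 70.9 CPM against 90.0, 87.2 and 89.6 CPM. None of these 4 genes overlapped between the 2 sets of libraries, and 27.7% of all 13699 genes did not overlap between them either. This is a description, since the sets were seen in the data and are not groups of the study. Gata3, Stat6, Irf4, Batf, Maf and Bhlhe41 overlapped between them. In CPM, the coefficient of variation in deficient cells was widest for Epas1, at 36.7%, and Pparg, at 31.5%, and narrowest for Stat6, at 3.40%. In controls it was 3.77% for Epas1, 9.50% for Pparg and 3.72% for Stat6.

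Markers of other cells also differed between these libraries. The 10 CD8 T and NK cell markers summed to 687 to 1040 CPM in deficient libraries 1 to 4 and 1491 to 1958 CPM in libraries 5 to 7, against 99.4 to 201.8 CPM in controls. Of the 10, 8 were higher in deficient cells and 0 lower. Over all genes tested, 29.4% were higher and 28.6% lower, and the counts of markers here are to be read against these shares. Cd8a read 5.26 to 10.8 CPM in libraries 1 to 4 and 35.3 to 54.3 CPM in libraries 5 to 7, against 0 to 1.55 CPM in controls. The 9 B cell markers summed to 75.0 to 101.04 CPM in libraries 1 to 4 and 319 to 363 CPM in libraries 5 to 7, against 16.2 to 108 CPM in controls, with 3 of 9 higher. The 9 mast cell and basophil markers, 2 of 6 tested higher, summed to 10.8 to 14.5 and 31.9 to 45.7 CPM, against 7.05 to 7.43 CPM. The share of tested genes called higher was 33.3% in the B cell list and in the mast cell list, which is near that of all genes. The 9 dendritic cell markers, 3 of 6 tested higher, summed to 104 to 111 and 175 to 177 CPM, against 59.1 to 72.0 CPM; their list also holds Batf3 and Irf8, and the mast cell list Gata1 and Gata2. The 9 macrophage and monocyte markers summed to 5.68 to 8.58 CPM in deficient libraries, against 15.9 to 18.0 CPM in controls, with 1 of 3 tested higher and 1 lower. Most of the sum was Cd68, a lysosomal protein gene, which fell to 3.27 to 5.10 CPM in deficient libraries, against 13.2 to 14.7 CPM in controls. Adgre1, the gene of the macrophage surface protein F4/80, rose by 1.44 on the log2 scale, at no more than 1.71 CPM in any library. Cd14, Lyz2, Csf1r, Fcgr1, Itgam and Spi1 were too low to be tested. The 8 markers of innate TH2-type lymphoid cells summed to 247 to 310 CPM in deficient libraries, against 280 to 301 CPM in controls. Of the 6 tested, Klrg1, Rora and Id2 were higher and Il7r and Il1rl1 lower, and Il17rb and Arg1 were too low to be tested. No marker in these lists was at 0 in every library, and the part of other cells in the levels of the factors was not tested.

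**Figure D3:**
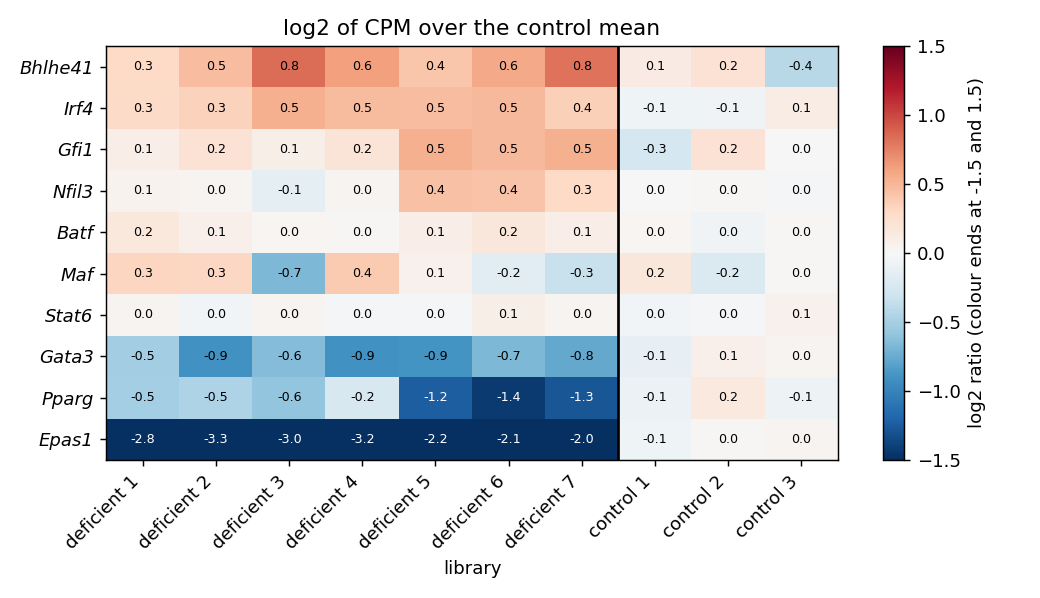
Log2 ratio of each library's CPM to the control mean for the 10 factor genes (rows), with deficient libraries left of the line and controls right; the colour scale ends at -1.5 and 1.5. Epas1 lies between -3.3 and -2.0 in all 7 deficient libraries, and Pparg, Nfil3 and Gfi1 differ between libraries 1 to 4 and 5 to 7.

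Per length of merged exons, in RPKM (CPM per kilobase), Irf4 had the highest level in both groups, at 187 ± 11.9 in deficient cells and 139 ± 9.69 in controls (SD, with n = 7 deficient and n = 3 control libraries, here and below). Nfil3 and Batf followed, at 96.1 ± 15.1 and 91.8 ± 3.76 RPKM in deficient cells and 84.8 ± 1.51 and 86.0 ± 2.49 RPKM in controls. These neighbours overlapped in both groups and cannot be ordered on this length. Stat6 stood next, at 33.1 ± 1.13 and 32.7 ± 1.22 RPKM. Gfi1 was above Pparg in deficient cells (24.3 ± 3.46 and 14.3 ± 4.51 RPKM), and Pparg above Gfi1 in controls (24.2 ± 2.30 and 19.5 ± 3.21 RPKM), without overlap in either group. The margins were narrow. The lowest Gfi1 was 20.7 against a highest Pparg of 20.4 RPKM in deficient libraries. In controls the lowest Pparg was 22.8 against a highest Gfi1 of 22.6 RPKM. Gata3 was the seventh of 10 in both groups, at 9.23 ± 0.992 and 15.6 ± 1.13 RPKM; it overlapped with Pparg in deficient cells and with Gfi1 in controls. Epas1 stood at 1.73 ± 0.636 RPKM in deficient cells, where it overlapped with Maf at 1.04 ± 0.266 RPKM, against 10.3 ± 0.388 RPKM in controls, where it did not (Maf 1.02 ± 0.138 RPKM). Bhlhe41 was the lowest, at 0.923 ± 0.129 and 0.614 ± 0.135 RPKM, and overlapped with Maf in deficient cells.

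**Figure D4:**
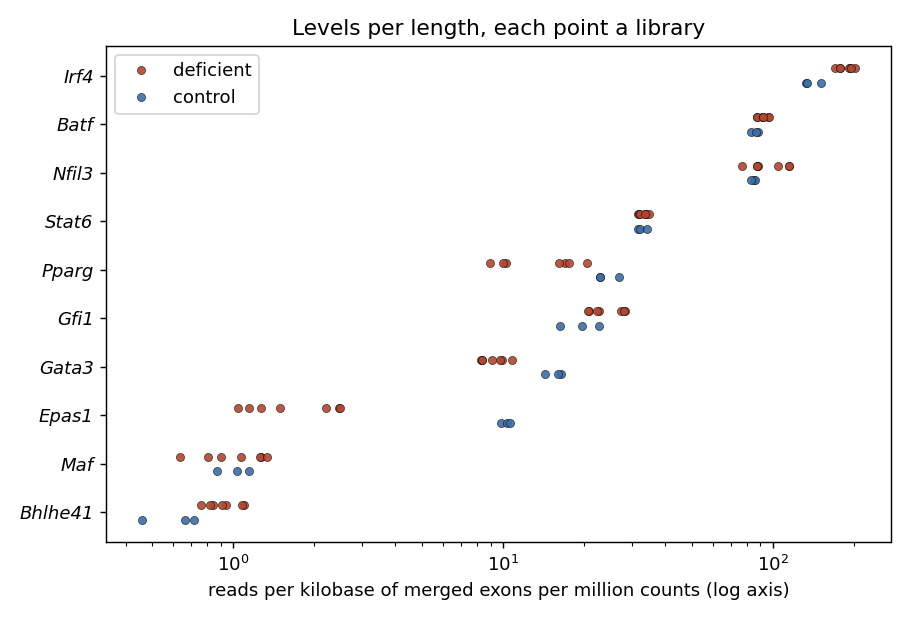
Level per length (log axis, RPKM over merged exons) of the 10 factor genes, a point per library, with deficient libraries above controls in each row. The levels span from under 1 for Bhlhe41 to above 100 for Irf4, and the order of Pparg and Gfi1 differs between the groups.

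Ratios within a library remove its depth. A set of 10 ratios of levels per length between members and partner or rival genes was compared by exact permutation, with two-sided tests on all 120 splits and a smallest possible p of 0.0167. Any ratio without overlap between the groups gives this p. Gata3, Epas1, Pparg and Irf4 were themselves without overlap in CPM, as were 50.8% of all genes. A small p of their ratios is therefore not separate evidence, and the ratios are a description. Gata3 over Tbx21, the TH1 master regulator, was 0.492 to 0.762 in deficient libraries, against 29.5 to 64.3 in controls (exact permutation p = 0.0167, adjusted p = 0.0238). In every deficient library Gata3 was thus below Tbx21, and in every control above it. Most of this difference lay in Tbx21, with a log2 fold change of 5.45, against -0.84 for Gata3. The Gata3 to Stat6 ratio was 0.258 to 0.321 in deficient libraries, against 0.450 to 0.510 in controls (exact permutation p = 0.0167). Epas1 over its partner Arnt was 0.260 to 0.666 in deficient libraries and 1.08 to 1.37 in controls, although Arnt itself fell by 1.15 on the log2 scale. Pparg over its partner Rxra was 1.75 to 2.66 in deficient libraries, against 3.45 to 4.55 in controls. Irf4 over Batf was 1.76 to 2.30 in deficient libraries, against 1.51 to 1.73 in controls. Batf over Batf3, a paralogue that rose by 1.75 on the log2 scale, was 5.87 to 8.29 in deficient libraries, against 17.3 to 30.1 in controls. Those of Epas1 over Hif1a also did not overlap, at 0.00717 to 0.0135 in deficient libraries against 0.0445 to 0.0488 in controls. Ratios of Pparg over Ppard, Bhlhe41 over Bhlhe40 and Irf4 over Irf8 overlapped (exact permutation p = 0.933, 0.2 and 0.567).

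Relatives and dimer partners of the members moved both ways. Of 29 listed, 20 were tested, 8 were higher and 6 lower, with a median log2 fold change of 0.01. Bhlhe40, the more abundant paralogue of Bhlhe41, rose to 330 ± 27.1 CPM in deficient cells, against 177 ± 11.3 CPM in controls. Batf3 read 17.8 to 25.1 CPM in deficient libraries, against 4.65 to 7.70 CPM in controls. Mafk, the gene of a small Maf protein, averaged 29.0 ± 1.67 CPM in deficient cells and 15.7 ± 2.02 CPM in controls. Arnt fell to 33.1 ± 1.97 CPM in deficient cells, against 69.0 ± 6.09 CPM in controls, and Ppard to 3.52 ± 1.12 CPM, against 5.79 ± 0.232 CPM. Hif1a, the other oxygen-regulated subunit, had a log2 fold change of -0.44 (adjusted p = 0.0644, edgeR). Its levels were 777, 859, 818 and 877 CPM in deficient libraries 1 to 4 and 1381, 1244 and 1093 CPM in libraries 5 to 7, against 1308, 1275 and 1285 CPM in controls. The GATA relatives Gata1 and Gata2 were under 1 CPM on average in both groups.

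Upstream of the factors, 4 of 18 tested genes of IL-4 receptor and Notch input were higher and 8 lower, with a median of -0.19. Il4ra, the receptor chain that recruits STAT6, fell to 286 ± 49.3 CPM in deficient cells, against 359 ± 9.67 CPM in controls (log2 -0.41, adjusted p = 0.00939, edgeR). The co-stimulatory receptor gene Icos fell by 2.35 and the inhibitors Socs5 and Cish by 1.13 and 0.62 on the log2 scale. Rbpj, the DNA-binding factor of Notch signalling, rose by 0.79 and Il2rb by 0.42. Among AP-1, IRF and NFAT partners 3 of 16 tested were higher and 7 lower, with a median of -0.16. There Nfatc3, Jun and Fosb fell by 0.82, 1.41 and 1.38 on the log2 scale, while Fosl1 rose by 1.52 and Irf1 by 1.21. Of 16 chromatin cofactors, 2 were higher and 7 lower, with a median of -0.22. The histone deacetylase gene Hdac1 rose by 0.93, and Ezh2, whose protein silences genes by methylating histone H3, fell by 0.69, as did the genome organiser gene Satb1 by 0.72.

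Downstream, 5 of 19 tested TH2 target genes were higher and 8 lower, with a median of -0.01. Il6 and the leukotriene receptor gene Cysltr1 rose by 3.39 and 1.83 on the log2 scale, while the chemokine receptor genes Ccr4 and Ccr8 fell by 1.07 and 1.11. Asb2, the gene of a ubiquitin ligase subunit, fell by 2.19 and Rad50, whose gene holds the control region of the TH2 cytokine locus, by 1.04. The lowest log2 fold change of the list was that of Il1rl1, the IL-33 receptor gene, at -3.09. Il13 and Il5 rose by 1.21 and 0.84. Il4 stood at 16.5 ± 5.00 CPM in deficient cells and 15.1 ± 0.617 CPM in controls and did not pass (adjusted p = 0.868, edgeR). Factors of rival lineages included 7 of 18 tested genes higher and 3 lower, with a median of 0.14. Tbx21 rose by 5.45 and Sox4, whose protein restrains GATA3 in mice, by 1.80, while Stat4 fell by 0.67 and Id3 by 0.83. The Gata3 cofactor gene Zfpm1 (16.0 ± 3.61 and 12.9 ± 1.54 CPM), chosen after its values were seen, did not pass (adjusted p = 0.341, edgeR). Foxp3, the regulator of regulatory T cells, was at 0.126 ± 0.114 CPM in deficient cells and 0.0575 ± 0.0995 CPM in controls and could not be tested. The called shares of these lists are to be read against the 58.0% of all genes.

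**Figure D5:**
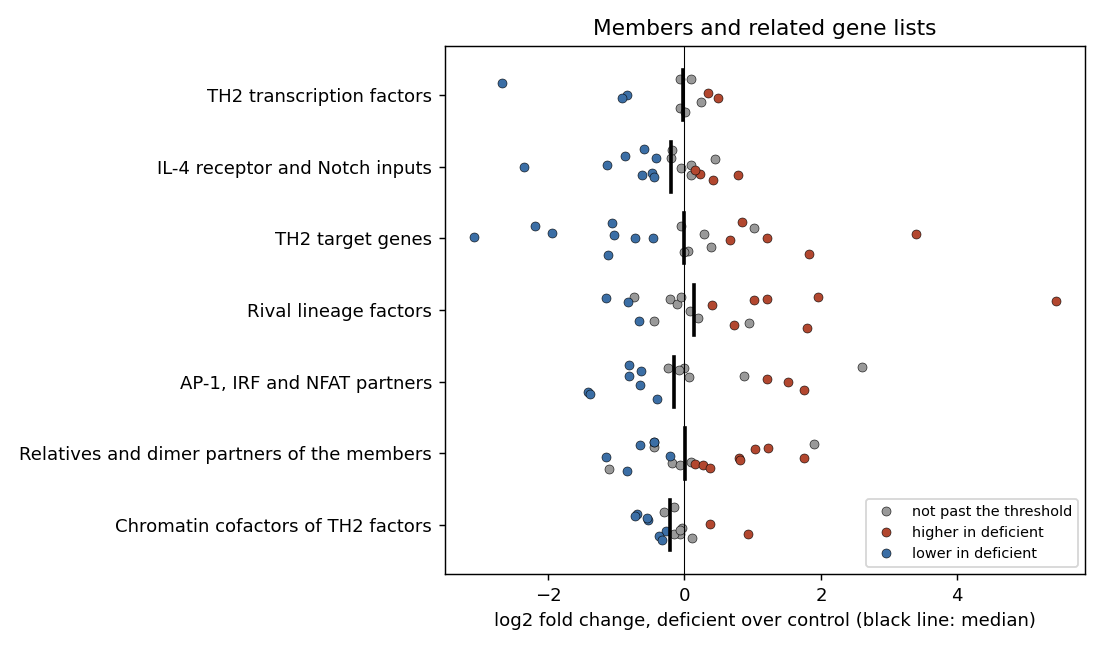
Log2 fold change, deficient over control (horizontal axis), of tested genes in 7 lists (rows), red where higher and blue where lower at an adjusted p below 0.05, with a black line at each median. The medians lie between -0.22 and 0.14, and Tbx21, at 5.45, is the point farthest to the right.

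To find genes that vary like a factor beyond the diet, each library's log2 CPM was taken as its deviation from the mean of its diet, over 10 libraries and 8548 genes. The points share their library depth, and the values are a description. The genes named are those with the highest r among the 8548, so high values come in part from that choice. Gata3 was most like Igsf8, Fam193b and Nck2 (Pearson r of 0.93, 0.92 and 0.92). Epas1 was most like Map3k3, the pseudogene Gm15459 and Cdc37 (0.97 for each). Irf4 was most like Mrpl51, 2410006H16Rik and Iqcb1 (0.97, 0.96 and 0.95), and Maf like Rchy1, Cmas and Suz12 (0.94, 0.93 and 0.91).

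Batch moved none of the members past the threshold, with a smallest adjusted p of 0.629 (edgeR). Over all 13699 genes 0 passed for batch (0.00%) and 1038 had an unadjusted p under 0.05. The product of diet and batch called 0 members and 0 genes (0.00%; 565 at an unadjusted p under 0.05), with a smallest adjusted p of 0.947 among members. The interaction rests on a single control in batch 2. For Epas1 it was 0.75 (SE 0.394) and for Pparg -0.64 (SE 0.382) on the log2 scale, so differences of that size between batches could not be detected. Reads of some overlapping genes on the other strand cannot be told apart from the members' own, as the strand setting of the counting is not known here. The largest overlap was that of Gm43909, which covers 19.0% of the Bhlhe41 exons and stood at 0.444 ± 0.393 CPM in deficient cells and 0.172 ± 0.299 CPM in controls. For Maf, Gfi1, Gata3 and Stat6 the overlap with any other gene was at most 5.34% of the exons.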

How the data were processed

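The authors deposited one table of raw read counts per Ensembl gene, with a column for each of the 10 libraries. Libraries were stranded total RNA with globin depletion, per the labels' protocols. STAR 2.7.10a, HTSeq 0.13.5 and GRCm38 are named in the submitters' processing notes; neither strand setting nor annotation release is given in the sources used here. Of 49671 gene IDs, 49412 matched GENCODE M21 (GRCm38).

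The fit used edgeR 4.0.16 in R 4.3.3: filterByExpr (minimum count 10), TMM scaling and a robust quasi-likelihood fit with diet and batch, Benjamini-Hochberg adjusted over 13699 genes. Levels are CPM on plain totals, which would put the median log2 fold change of all genes at 0.10 instead of 0.02. Intervals of 95% come from the fit. Counts were also simulated for deficient over control (13373 genes). The calls held 31 of 64 genes simulated at 1.5-fold, 41 of 66 at 2-fold and 56 of 60 at 4-fold, and 12 of 140 calls were false. No other gene was changed and no batch effect was simulated, whereas 58.0% of all genes were called in the data. The recovered shares therefore need not hold for the data. Alternatives used DESeq2 1.42.0, limma 3.58.1, other scalings and filters, batches alone and left-out libraries.

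The members and lists were chosen with earlier results of these data known. All members are named; from other lists, up to 4 genes per direction of smallest p, plus Tbx21, Il4, Il5, Il13, Il4ra, Cd8a, Bhlhe40, Hif1a and Cd4, and the 3 genes most like Gata3, Irf4, Maf and Epas1. Cd3e, Zfpm1, Rxra, Irf8, Gata1, Gata2 and Foxp3, and the genes named as too low to be tested, stand outside this rule and were chosen after their values were seen. Replicates of a group differed by more than sampling noise, with a chi-square per gene of at least 2.82. Replicate numbers follow accession order.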

Additional observations from a re-analysis of the deposited data

How the results depend on the processing

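Gata3, Epas1, Pparg and Irf4 kept direction and call under all 25 alternatives. Leaving out 1 library in turn gave -0.89 to -0.79 for Gata3, -2.91 to -2.58 for Epas1, -1.04 to -0.71 for Pparg, 0.32 to 0.39 for Irf4, 0.26 to 0.62 for Bhlhe41, 0.15 to 0.41 for Gfi1, -0.0082 to 0.16 for Nfil3, -0.22 to 0.066 for Maf, -0.08 to -0.05 for Stat6 and -0.011 to 0.064 for Batf. Bhlhe41 missed the threshold with DESeq2 (0.49), limma-voom (0.47), batch 1 alone (0.26), without deficient libraries 5 to 7 (0.29) or 1 and 3 (0.50), and with thinned counts (0.39). Gfi1 passed with total counts (0.32), no count filter (0.35), batch 2 alone (0.44) and without deficient libraries 1 and 3 (0.31); Nfil3 passed with no count filter (0.21) and in batch 2 alone (0.34). The sign turned, without a call, for Stat6 with total counts (0.021) and no filter (0.045), for Maf with total counts (0.026), no filter (0.051), batch 1 alone (0.065), without control library 1 (0.012) or 3 (0.066), without deficient library 3 (0.033) and without deficient libraries 5 to 7 (0.11) or 1 and 3 (0.0024), for Nfil3 in batch 1 alone (-0.0067), without control library 3 (-0.0082) and without libraries 5 to 7 (-0.10), and for Batf in batch 1 alone (-0.0059), without control library 2 (-0.011) or 3 (-0.0074), without deficient library 1 (-0.0065), without libraries 5 to 7 (-0.0090) and with thinned counts (-0.0055). The cause was not tested, except that total counts and no filter moved the median of all genes to 0.10 and 0.19, from 0.02.

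Of the members, 3 were lower under all alternatives. With 2 higher as reported, 4 were higher with no filter and in batch 2 alone, and 1 with DESeq2, limma-voom, batch 1 alone, without deficient libraries 5 to 7 and with thinned counts (1 to 3 with a library left out). Called counts of the lists moved by over 1.5 times under several alternatives. Higher AP-1, IRF and NFAT partners were 1 in batch 1. Higher relatives were 5 with limma-voom, in batch 1 and with thinned counts, and lower relatives 2 in batch 1. Higher TH2 targets and higher AP-1, IRF and NFAT partners also moved in batch 2 alone, with its lone control. Some counts moved as far with 1 library left out, within the ranges that follow. With a library left out, higher counts ranged 2 to 4 for IL-4 and Notch inputs, 4 to 5 for TH2 targets, 5 to 8 for rival factors, 2 to 5 for AP-1 partners and 5 to 8 for relatives, and lower counts 7 to 9, 7 to 8, 2 to 4, 6 to 7 and 3 to 7. No paired analysis was possible because replicate numbers only follow accession order. Lengths by longest transcript kept each factor's place in the order by mean level, except that Batf stood above Nfil3 in deficient cells. Overlap of libraries between neighbours was read on merged exons alone and may differ on that length.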
